A study of Homo sapiens with 372 samples.

Results

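DDIT4 and TXNIP are 2 of the 9664 genes listed for single A2780 cells treated with paclitaxel, celecoxib or both. They were chosen from these data because, among genes with a value in 30% or more of the cells of each group, they had the highest and second-highest rise in mean expression after 16-h celecoxib. That difference therefore describes how they were selected and is not a result about them. The other differences from control use the same control cells, and those that involve 16-h celecoxib use the same celecoxib cells. Their sizes and ranks are therefore not independent of the choice. Both also passed the detection limit of a value above 0 in more than 30% of cells in 1 or more conditions, which 9655 of the 9664 genes did.

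DDIT4, also called REDD1, is an inhibitor of mTORC1, the kinase complex that couples nutrients and growth factors to protein synthesis. It acts through the TSC1-TSC2 complex and is known to be induced by hypoxia, by the stress factor ATF4, by p53 and by glucocorticoids. TXNIP is an alpha-arrestin that binds thioredoxin and restrains glucose uptake, and it is known as a target of the glucose-responsive factors MLXIP (MondoA) and MLX. DDIT4 is thus known as a gene of energy and nutrient stress, while TXNIP transcription is known to follow glucose supply, and TXNIP protein is degraded when the energy sensor AMPK is active.

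A2780 is an established human ovarian endometrioid adenocarcinoma line. Full-length transcripts of single cells were sequenced by Smart-seq2 after capture on the Fluidigm C1 system, with 3 polyA-tailed spike-in RNAs added to each well. The conditions were untreated control, 5 nM paclitaxel (a microtubule stabilizer) for 16 and 48 h, 75 µM celecoxib (a cyclooxygenase inhibitor) for 2 and 16 h, and 5 nM paclitaxel with 75 µM celecoxib for 16 h. Of 372 cells sequenced, 338 were retained: 46 control cells, 56 and 53 under 16- and 48-h paclitaxel, 63 and 61 under 2- and 16-h celecoxib, and 59 with the combination. The 59 include a well whose label notes no cell. No vehicle-treated or time-matched control is named, and all 5 treatments are compared with the same control cells. Each condition was 1 C1 run, so that it counts as 1 sample. The cells are not replicates of a condition, every SD below is a spread over cells, and no p-value was computed.

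The unit is the E-value, log2(N/10 + 1), with N for the TPM of a gene divided by the spike-in factor of its cell, which is the TPM of the most abundant spike-in RNA there relative to its average across cells. Because the total of N differed between conditions, each level is also given at the same total per cell (with equal totals), where the N of every cell was rescaled to 1 common total. Relative to the control cells, the median total was lower by 0.99 and 0.64 on the log2 scale under 16- and 48-h paclitaxel, and by 0.76 and 1.52 under 2- and 16-h celecoxib. It was 0.49 higher with the combination. On the deposited scale the median difference of all 9655 genes from control was -0.41, -0.26, -0.26, -0.48 and 0.33 in that order, and at the same total it lay between -0.07 and 0.03. The median number of genes detected was between 6126 and 6630 per cell. Reads per cell are not known, so a value of 0 says only that a gene was listed at 0. Of the epithelial markers KRT8, KRT18, KRT19, EPCAM and CDH1, KRT18 alone is listed, in between 23.9 and 36.5% of the cells of a condition. The fibroblast gene COL1A2 was above 0 in between 10.7 and 32.8% of the cells. None of the ovarian (PAX8, WT1, MUC16), leukocyte (PTPRC, CD52) and endothelial (PECAM1, VWF) markers is listed. The part of these in the results was not tested.

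DDIT4 (ENSG00000168209.4) lies on the plus strand at chr10:72273919-72276036 of hg38, and its main transcript has 3 exons and 1744 bases. TXNIP (ENSG00000265972.5) lies on the minus strand at chr1:145992435-145996579, with 8 exons and 2905 bases. The 250 bases upstream of the RefSeq start of each gene are shown because different stress and nutrient sensors are known to act on them. They are taken from RefSeq on GRCh38.p14, DDIT4 from chr10:72273674-72273923 on the plus strand and TXNIP from chr1:145996580-145996829 on the minus strand, where the first of 2 annotated starts was used. The capitals mark every match to one of 5 motifs on either strand.
DDIT4: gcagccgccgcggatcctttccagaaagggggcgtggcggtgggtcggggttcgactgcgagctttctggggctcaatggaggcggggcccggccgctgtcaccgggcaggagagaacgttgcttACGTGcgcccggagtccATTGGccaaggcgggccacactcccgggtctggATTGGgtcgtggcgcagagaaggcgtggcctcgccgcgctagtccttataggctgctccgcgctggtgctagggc
TXNIP: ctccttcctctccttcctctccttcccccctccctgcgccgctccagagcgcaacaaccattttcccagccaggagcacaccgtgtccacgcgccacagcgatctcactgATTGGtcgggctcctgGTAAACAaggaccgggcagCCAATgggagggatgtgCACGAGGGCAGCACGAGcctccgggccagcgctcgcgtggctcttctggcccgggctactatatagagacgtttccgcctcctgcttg

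The motifs were ACGTG (the core bound by HIF1 and many other factors), TGATGNAA (the site of CHOP or ATF4 with C/EBP), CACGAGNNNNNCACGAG (a pair of E-box-like repeats of the carbohydrate response element), GTAAACA (the forkhead site of FOXO factors) and CCAAT (the NF-Y site, which reads ATTGG where it lies on the other strand). No match overlapped another. In the DDIT4 sequence, ACGTG stood 125 to 121 bases before the start. It was found in 18.7% of the 27305 promoters of the same length. In the TXNIP sequence, the pair of repeats stood 88 to 72 bases before the start. The spelling searched was the one that stands in TXNIP, and other spellings of the element were not searched. With that spacing and spelling, 2 of the 27305 promoters (0.00733%) matched, TXNIP and KCTD5 (the latter named after the search). The match in TXNIP and its rarity therefore follow from the spelling and are no result about TXNIP. GTAAACA stood 124 to 118 bases before the TXNIP start and occurred in 2.98% of promoters. Each of the 2 sequences held CCAAT at 2 places, as 33.0% of promoters did at 1 or more. TGATGNAA, which 3.19% of promoters held, was in neither window. The CCAAT motif was the 1 of the 5 found in both windows. These matches describe letters in the reference sequence and say nothing of binding in A2780 cells.

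As deposited, DDIT4 was listed at 0 in many control cells and was detected in nearly all celecoxib cells. In the control, it was above 0 in 23 of 46 cells (50.0%, exact Clopper-Pearson 95% interval 34.9 to 65.1%), with a lowest E-value of 0, a median of 0.10 and a highest of 6.56. The mean was 1.40 ± 1.72 (SD over 46 cells). The intervals of these shares cover counting error only. The control cells fall into a group at 0 and a group spread between 0.19 and 6.56, whose mean was 2.81.

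After 16-h paclitaxel DDIT4 was above 0 in 80.4% of cells (67.6 to 89.8%), with a median of 1.89, a highest value of 5.02 and a mean of 1.88 ± 1.56 (SD over 56 cells). After 48 h the share was 84.9% (72.4 to 93.3%), the median 3.25, the highest value 6.20 and the mean 3.04 ± 1.89 (SD over 53 cells). The lowest value was 0 at both times, so that both paclitaxel groups overlapped the control over its whole lower range.

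After 2-h celecoxib DDIT4 was already above 0 in 60 of 63 cells (95.2%, 86.7 to 99.0%), with a lowest value of 0, a median of 3.97, a highest of 5.63 and a mean of 3.68 ± 1.55 (SD). After 16 h it was above 0 in 61 of 61 cells (94.1 to 100%), with a lowest value of 0.06, a median of 4.59, a highest of 6.37 and a mean of 4.19 ± 1.34 (SD). In the combination, 9 of 59 cells were at 0 and the other 50 (84.7%, 73.0 to 92.8%) lay between 2.82 and 7.34. The median there was 4.88 and the mean 4.38 ± 2.17 (SD). No combination cell lay between 0 and 2.82, a range that held cells in each of the other 5 conditions.

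TXNIP had the lower mean of the pair in every condition. TPM is a value per transcript length, so the levels of the genes can be set side by side, and DDIT4 had the higher E-value in 21 of 46 control cells, where another 17 held neither gene, and in 53 of 61 cells under 16-h celecoxib. In the control, TXNIP was above 0 in 15 of 46 cells (32.6%, 19.5 to 48.0%), with a median of 0, a highest value of 3.11 and a mean of 0.59 ± 1.03 (SD over 46 cells). The other 31 control cells were listed at 0.

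After 16-h paclitaxel TXNIP was above 0 in 50.0% of cells (36.3 to 63.7%), with a median of 0.05, a highest value of 4.02 and a mean of 0.84 ± 1.11 (SD over 56 cells). After 48 h the share was 71.7% (57.7 to 83.2%), the median 2.20, the highest value 4.63 and the mean 1.95 ± 1.59 (SD over 53 cells). At 48 h 17 of 53 cells exceeded every control cell, against 4 of 56 at 16 h.

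After 2-h celecoxib TXNIP was above 0 in 76.2% of cells (63.8 to 86.0%), with a median of 1.80, a highest value of 4.50 and a mean of 1.87 ± 1.43 (SD over 63 cells). After 16 h the share was 88.5% (77.8 to 95.3%), the median 2.44, the highest value 5.13 and the mean 2.30 ± 1.44 (SD over 61 cells). In the combination it was 62.7% (49.1 to 75.0%), with a median of 1.95, a highest value of 6.39 and a mean of 2.14 ± 2.08 (SD over 59 cells). The combination cells were divided, since 22 of 59 were at 0 while 23 exceeded every control cell. With equal totals 12 of them did, against 18 of 53 under 48-h paclitaxel and 34 of 61 under 16-h celecoxib. The lowest TXNIP value was 0 in all 6 conditions.

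**Figure D1:**
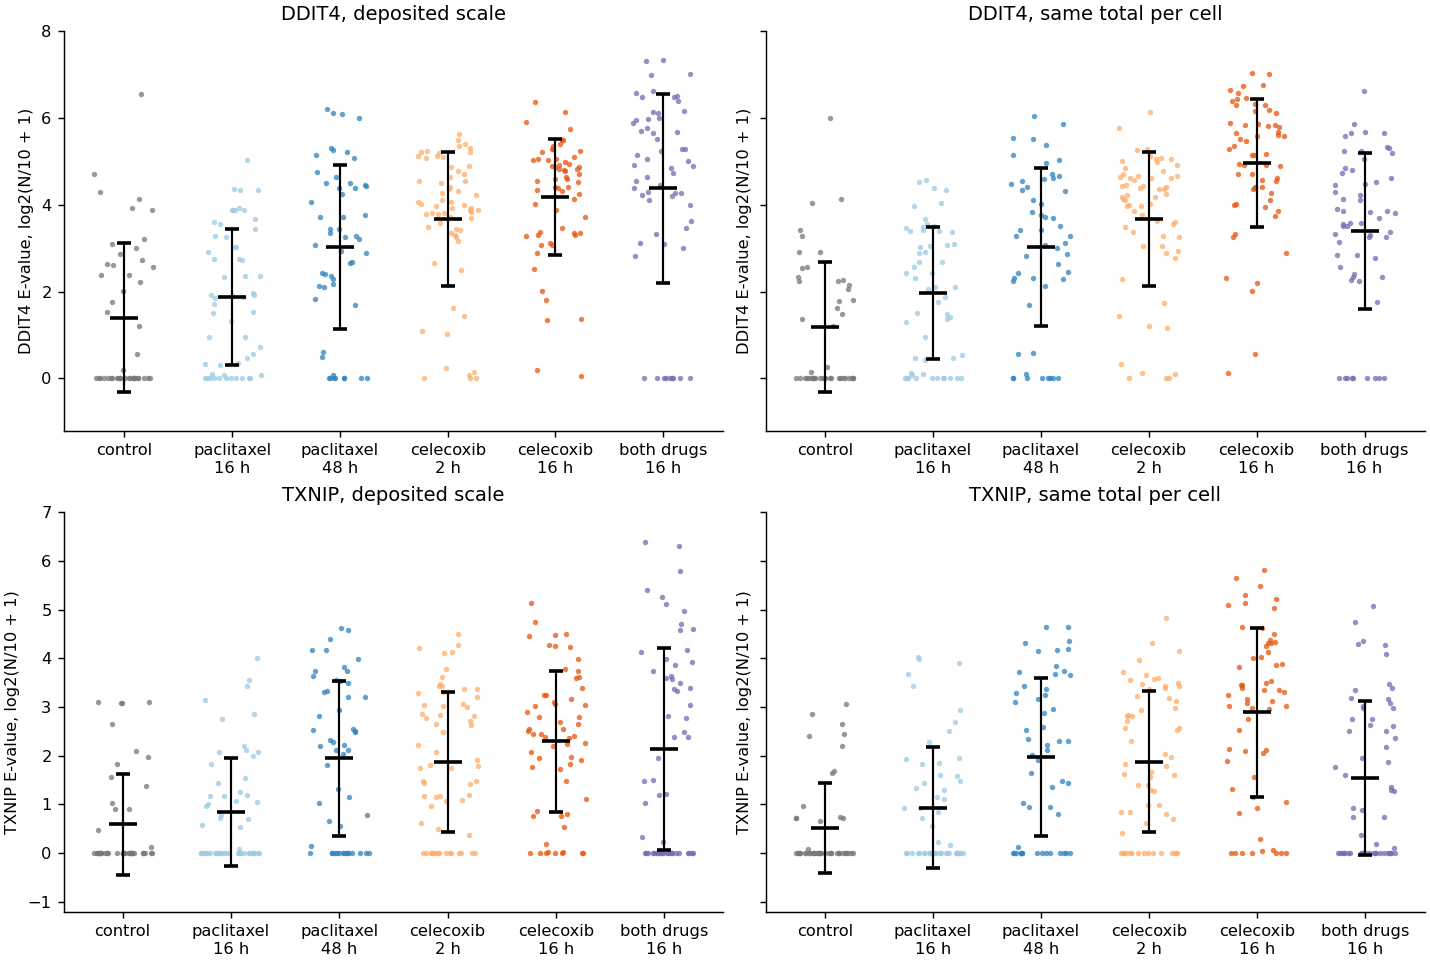
E-value, log2(N/10 + 1), of DDIT4 (top) and TXNIP (bottom) in each of the 338 cells by condition, on the deposited scale (left) and at the same total per cell (right). Points are cells, the wide black bar is the mean and the thin bars are 1 SD over cells. DDIT4 is at 0 in 23 of 46 control cells and in none of 61 cells under 16-h celecoxib, and the combination has the highest DDIT4 mean on the left (4.38) and stands below both celecoxib groups on the right (3.40).

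At the same total per cell the order of the conditions changed. Mean DDIT4 was 1.19 in the control, 1.97 and 3.03 under 16- and 48-h paclitaxel, 3.40 with the combination, and 3.67 and 4.96 under 2- and 16-h celecoxib. Mean TXNIP was 0.51 in the control, 0.93 under 16-h paclitaxel, 1.54 with the combination, 1.88 under 2-h celecoxib, 1.98 under 48-h paclitaxel and 2.89 under 16-h celecoxib. On the deposited scale the combination stood highest for DDIT4 and second for TXNIP, after 16-h celecoxib. Control and 16-h paclitaxel were the lowest and second-lowest for both genes on both scales. No condition differed from its neighbour in these orders by more than the larger SD over cells. Neighbours are the closest means and this SD is a spread of single cells, so this says nothing of conditions further apart.

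The first comparison asks what each drug alone did to DDIT4 and TXNIP relative to untreated cells. A gene was counted as past the limit when its mean E-value differed from the control by over log2 of 1.5, which is 0.58. Differences in E-values understate the change of weakly expressed genes. The choice of the genes also used these control cells, so the differences and ranks below are not independent of it.

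Under 16-h paclitaxel, DDIT4 was 0.47 above the control and TXNIP 0.25 on the deposited scale, where neither passed the limit and 0.0932% of the 9655 genes passed it upward. They ranked 20 and 131 among 9655 rises. At the same total DDIT4 passed the limit (0.78) and TXNIP did not (0.42), beside 1.40% of all genes up and 10.0% down. The DDIT4 value rests in part on 1 control cell with an E-value of 6.56, above every cell treated with a single drug: without it the deposited difference was 0.59. With linear means, where that cell weighs most, the ratio to control was 0.97, and the log2 ratio without it was 0.59.

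Under 48-h paclitaxel, DDIT4 was 1.63 above the control (rank 6) and TXNIP 1.35 (rank 10), and both passed the limit, which 0.922% of genes did upward. With equal totals the values were 1.84 and 1.46, beside 3.28% of genes up and 5.78% down. A paclitaxel cell at 48 h held more DDIT4 than a control cell in 74.4% of all pairs of cells, and more TXNIP in 74.9%, with ties divided evenly between the groups. Between 16 and 48 h, DDIT4 differed by 1.16 on the deposited scale and 1.06 with equal totals. TXNIP differed by 1.10 and 1.04, so that most of the distance of these means from control at 48 h lay between the 2 paclitaxel times. This did not hold for DDIT4 by medians over cells, which were 1.79 above the control at 16 h and 3.15 at 48 h on the deposited scale.

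Under celecoxib both genes were high at the earlier time. At 2 h, DDIT4 was 2.27 above the control (rank 2 of 9655) and TXNIP 1.28 (rank 13), both past the limit, as 1.12% of genes were upward. With equal totals these were 2.48 and 1.36, beside 3.31% of genes up and 8.12% down. At 16 h, on which the genes were chosen, the differences were 2.78 and 1.70, with 0.383% of genes past the limit upward and 43.9% downward. With equal totals they were 3.77 and 2.38, with 7.37% of genes up and 7.95% down. In linear terms on the deposited scale, mean DDIT4 was 4.31 times and mean TXNIP 6.00 times the control mean at 16 h, against 3.21 and 4.27 times at 2 h. Without the highest control cell the DDIT4 ratios were 6.68 and 4.98. Between 2 and 16 h, DDIT4 differed by 0.51 on the deposited scale, within the limit, and by 1.29 at the same total. TXNIP differed by 0.43 and 1.02. The genes were chosen on the 16-h cells, so these differences in time are not independent of the choice.

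The genes just outside the choice were APOE, an apolipoprotein, with a difference of 1.57 under 16-h celecoxib on the deposited scale, and MAT2A, which makes S-adenosylmethionine, with 1.53. Just inside stood TXNIP with 1.70. Without the requirement of detection in both groups, the growth factor GDF15 (2.49) and the pseudokinase TRIB3 (2.29) stood above TXNIP, which then ranked 4. Both were named after their values were seen. Rescaled to 1 total, MAT2A (2.85) and APOE (2.56) stood above TXNIP (2.38), and DDIT4 kept the first rank.

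**Figure D2:**
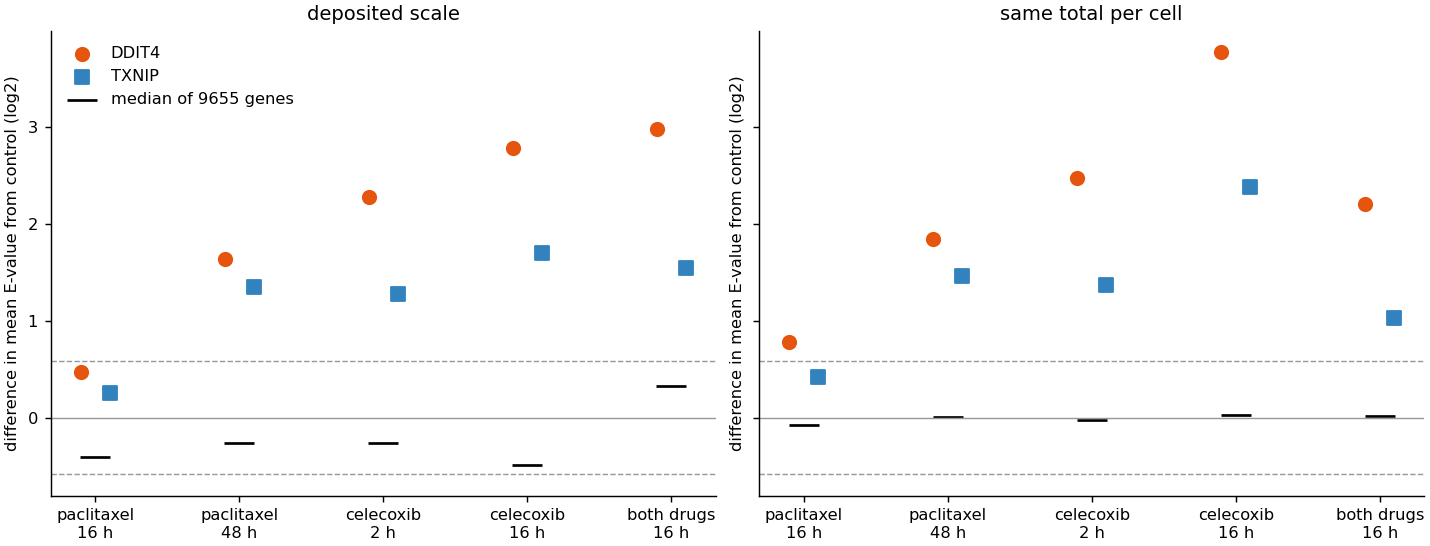
Mean E-value minus that of the control cells (log2 units) for DDIT4 (circles) and TXNIP (squares) in the 5 treatments, on the deposited scale (left) and at the same total per cell (right). Black bars are the median of 9655 genes and dashed lines the limit of 1.5-fold. Both genes lie above the median of all genes in every treatment on both scales, and on the left the lowest values are 0.47 and 0.25 under 16-h paclitaxel and the highest 2.98 for DDIT4 with the combination and 1.70 for TXNIP under 16-h celecoxib.

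The combination asks whether paclitaxel changed the response to the same dose and time of celecoxib. Against the control, DDIT4 was 2.98 higher (rank 6) and TXNIP 1.54 higher (rank 159) on the deposited scale, both past the limit, but so were 30.4% of all genes upward. Rescaled to 1 total, the differences were 2.20 and 1.03, with 5.96% of genes up and 5.80% down. Against 16-h paclitaxel alone, DDIT4 was higher by 2.51 on the deposited scale and 1.43 with equal totals, and TXNIP by 1.29 and 0.61.

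Against 16-h celecoxib alone the sign of the DDIT4 difference depended on the scaling. On the deposited scale DDIT4 was 0.20 higher and TXNIP 0.16 lower, both within the limit, while the median of all genes was 0.88 higher. At the same total DDIT4 was lower by 1.56 and TXNIP by 1.35, the 9th and 11th lowest of 9655 differences, with a median of all genes of -0.01. The genes were chosen for their rise in these celecoxib cells, so low ranks here are not independent of the choice. As shares of the summed expression of the listed genes, DDIT4 took 0.0444% on average in celecoxib cells and 0.0179% in combination cells, against 0.00377% in control cells. TXNIP took 0.0124, 0.00449 and 0.000877%. With linear means on the deposited scale, TXNIP was 0.69 and DDIT4 0.78 above 16-h celecoxib on the log2 scale. Each of these comparisons sets 1 run against 1 other, and the condition and the run cannot be told apart.

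The labels give each library an index number. Divided into blocks of 96 consecutive numbers, a division not given in the labels, 4 conditions fell within 1 block and 2 across 2 blocks, and every block held cells of 2 conditions. Under 48-h paclitaxel, mean DDIT4 was 2.70 in the 22 cells of one block and 3.27 in the 31 cells of the other. TXNIP was 0.90 and 1.67 above the control in these blocks. In the combination, DDIT4 was 4.24 in 34 cells and 4.58 in 25 cells, and TXNIP 2.13 and 2.15. The differences from control of both genes passed the limit in each block alone. The control cells carried indices of 1 of these blocks, the same as the second under 48-h paclitaxel, where DDIT4 was 1.87 above the control.

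The deposited annotation also assigns each cell a state from its expression profile, which can include both genes, so that the following values are a description. Under 48-h paclitaxel, mean DDIT4 was 3.66 ± 1.74 (SD) in 28 cells called control-like and 2.33 ± 1.83 (SD) in 25 called suppressive. With equal totals it was 3.41 and 2.61. TXNIP was 2.09 and 1.79 on the deposited scale and 1.94 and 2.01 with equal totals. For both genes the states differed by less than the SD over cells. The suppressive cells also had a lower median total, by 1.07 against 0.34 on the log2 scale relative to control. Under 2-h celecoxib, DDIT4 was 3.98 in 26 control-like and 3.23 in 33 suppressive cells, and 3.76 and 3.53 at the same total.

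Within a condition, cells with more DDIT4 did not regularly hold more TXNIP. Pearson's r over cells on the deposited scale was 0.09 in the control, -0.03 and -0.15 under 16- and 48-h paclitaxel, 0.25 and 0.23 under 2- and 16-h celecoxib and 0.13 in the combination. Cells of a condition share a C1 run and a spike-in scaling, and these coefficients are descriptions. At the same total, Spearman's coefficient was -0.26 under 48-h paclitaxel and 0.20 and 0.26 at the celecoxib times.

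The counts of cells give the same picture. Both genes were above 0 in 9 of 46 control cells (19.6%), where the product of the separate shares is 16.3%. Under 48-h paclitaxel, 33 of 53 cells held both (62.3%, product 60.9%), 12 held DDIT4 alone, 5 TXNIP alone and 3 neither. In the combination, 34 of 59 cells held both (57.6%, product 53.1%), 16 DDIT4 alone, 3 TXNIP alone and 6 neither. Under 16-h celecoxib, 54 of 61 held both and 7 DDIT4 alone, but all 61 held DDIT4, so this count cannot show whether the genes went together. Across the 6 condition means, in contrast, the genes moved together, with r = 0.96 at the same total over 6 points that include the comparison they were chosen on.

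**Figure D3:**
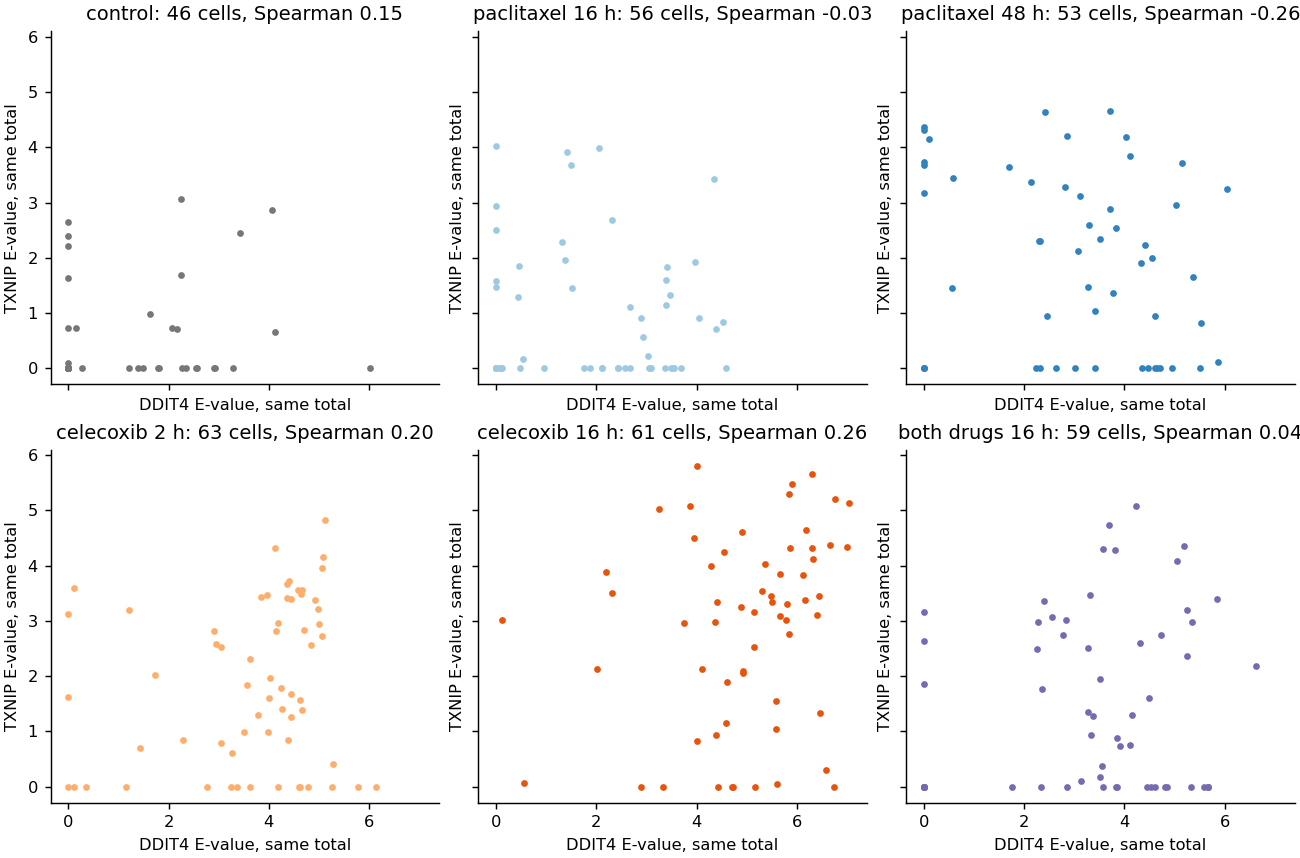
E-value of TXNIP against that of DDIT4 at the same total per cell, one panel per condition, with Spearman's coefficient over the cells in each title. Each point is a cell, and points on an axis are cells in which a gene was listed at 0. The coefficient lies between -0.26 under 48-h paclitaxel and 0.26 under 16-h celecoxib.

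The relation of DDIT4 to the total of a cell changed with the scale. On the deposited scale its Spearman coefficient with the summed N of the cell was 0.36 and 0.52 under 16- and 48-h paclitaxel and between 0.05 and 0.29 elsewhere. With equal totals it was 0.07 in the control, 0.14 and 0.32 under 16- and 48-h paclitaxel, and below 0 in the groups with celecoxib (-0.10 and -0.21 at 2 and 16 h, and -0.17 with the combination). For TXNIP it was between -0.08 and 0.14 in all 6 conditions on the deposited scale, and between -0.23 and -0.0035 with equal totals.

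The genes most like each member over cells differed between the pair. Likeness was the mean over the 6 conditions of Spearman's coefficient at the same total, among 7570 genes with a value above 0 in 30% or more of the cells of every condition. For DDIT4 the first was ATF4, the transcription factor of the integrated stress response, with a mean coefficient of 0.31 that was positive in all 6 conditions (0.13 to 0.55). It was followed by EIF1, a translation start factor, with 0.30, XBP1, a factor of the unfolded protein response, with 0.30, and ARF1, a GTPase of the Golgi, with 0.29. The 99th percentile over all genes was 0.15. ATF4 had a mean coefficient of -0.08 with TXNIP and was negative in 5 of the 6 conditions there.

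For TXNIP the first was the heat shock protein gene HSPA1A, with a mean coefficient of 0.44 (0.26 to 0.64). CITED2, a transcriptional co-regulator that is also on the list of FOXO targets described further on, had 0.43 (0.28 to 0.62), and both were positive in all 6 conditions. SOX4, a developmental transcription factor, had 0.39 (0.23 to 0.53). GPM6A, a membrane glycoprotein, had 0.39 (-0.03 to 0.60), and HOXC10, a homeobox factor, 0.39 (0.07 to 0.55). The 99th percentile was 0.24 for TXNIP, and HSPA1A and CITED2 had mean coefficients of -0.05 and -0.01 with DDIT4. TXN, the thioredoxin that TXNIP binds, had a negative coefficient with TXNIP in all 6 conditions, from -0.49 in the control to -0.20 in the combination at the same total, and from -0.34 to -0.04 on the deposited scale. MLXIP, the glucose-responsive factor, had a mean coefficient of -0.0035 with TXNIP, and TSC1 and TSC2 had 0.05 and -0.01 with DDIT4.

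**Figure D4:**
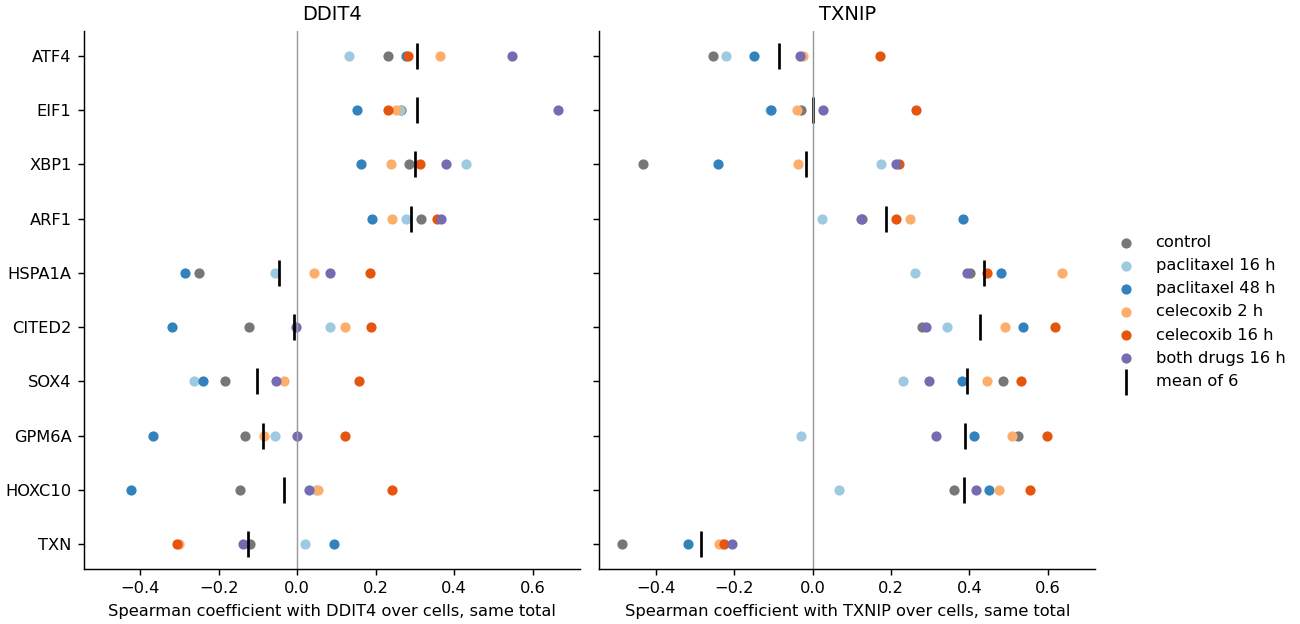
Spearman's coefficient over the cells of each condition, at the same total, between the genes on the y axis and DDIT4 (left) or TXNIP (right). Coloured points are conditions and black bars the mean of 6. The first 4 genes are among those most like DDIT4, the next 5 those most like TXNIP, and TXN lies below 0 for TXNIP in every condition.

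Over the 6 condition means at the same total, the genes whose level followed DDIT4 most closely were C10orf88, ERO1A, an oxidase of the endoplasmic reticulum, and FNIP1, a folliculin partner, with Pearson's r of 0.996, 0.996 and 0.995. For TXNIP they were the fatty acid synthase gene FASN, the HLA class I gene HLA-E and the small GTPase gene RASEF, with 0.994, 0.991 and 0.987. With 6 points high values are common, and the 99th percentile of all genes was 0.93 for either member. Over the conditions, mean C10orf88 ran from 0.53 to 0.94, ERO1A from 1.97 to 2.42 and FNIP1 from 0.41 to 0.93. FASN ran from 0.50 to 0.67, HLA-E from 0.54 to 1.31 and RASEF from 1.53 to 2.28, so that HLA-E and RASEF alone spanned more than the limit.

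The pathways around the pair are given by lists of 108 genes, of which 87 were measured, DDIT4 and TXNIP not among them. Counts are at the same total unless stated. Across the lists together, 0 genes were up and 10 down past the limit under 16-h paclitaxel, 5 and 1 at 48 h, 9 and 4 under 2-h celecoxib, 12 and 5 after 16 h of it, and 8 and 2 in the combination. As shares of the 87, those down under 16-h paclitaxel were 11.5% beside 10.0% of all genes, and those up at 48 h 5.75% beside 3.28%. Under celecoxib the shares up were 10.3% beside 3.31% at 2 h and 13.8% beside 7.37% at 16 h, and with the combination 9.20% beside 5.96%. The shares down at 48 h, in both celecoxib groups and with the combination were 1.15, 4.60, 5.75 and 2.30%, each below that of all genes (5.78, 8.12, 7.95 and 5.80%). As deposited, 6 listed genes were up and 30 down under 16-h celecoxib (34.5% down, beside 43.9% of all genes), and 32 up and 0 down with the combination (36.8% up, beside 30.4%).

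Among 30 of 34 measured genes of mTORC1 and its inhibitors, the complex that DDIT4 restrains, EIF4EBP1 and MLST8 were up and TBC1D7 down under 16-h celecoxib. As shares these were 6.67% up and 3.33% down, beside 7.37 and 7.95% of all genes. EIF4EBP1, a repressor of translation that mTORC1 phosphorylates, was 1.58 above the control, and 0.16 on the deposited scale, within the limit. MLST8, an mTORC1 subunit, was 1.03 above it, and was 0.17 below it on the deposited scale. TBC1D7, a subunit of the TSC complex, was 0.63 below. The median of the list was 0.16, beside 0.03 for all genes, and TSC1 and TSC2 themselves differed by 0.49 and 0.08 (TSC1 by -0.01 on the deposited scale). With the combination and under 48-h paclitaxel none of the 30 passed the limit. As deposited, none was up and 13 were down under 16-h celecoxib (43.3% down, beside 43.9% of all genes). Under 48-h paclitaxel 5 were down (16.7%, beside 26.6%), and with the combination 10 were up (33.3%, beside 30.4%). Of 8 measured genes of AMPK, the energy-sensing kinase, and its activator LKB1, none passed under 16-h celecoxib. There 7.37% of all genes were up and 7.95% down. The catalytic subunit gene PRKAA1 of AMPK differed by -0.15. On the deposited scale it was at -0.83, and it and PRKAB1 were down (25.0% of the list, beside 43.9% of all genes).

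Of 14 measured partners and relatives of TXNIP and genes of glucose sensing, the glucose transporter SLC2A3 was up (0.75) and TXN down (-0.88) under 16-h celecoxib. Each is 7.14% of the list, beside 7.37% of all genes up and 7.95% down. SLC2A3 was at -0.05 on the deposited scale, and TXN at -2.25. MLXIP differed by -0.12. ARRDC4, an arrestin that is another target of MLXIP, is not listed.

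The factors known to act on DDIT4 divided. Under 16-h celecoxib, 3 of 7 measured were up: DDIT3 (CHOP, 2.22), CEBPB (1.32) and ATF4 (1.18), while HIF1A was down (-0.61). As shares these were 42.9% up and 14.3% down, beside 7.37 and 7.95% of all genes. ATF4 was at -0.15 on the deposited scale. The same 3 were up at 2 h (42.9%, beside 3.31% of all genes), by 1.96, 0.94 and 1.09. Of these, ATF4 was within the limit on the deposited scale (0.55). With the combination DDIT3 (1.11) and CEBPB (0.64) were up and HIF1A (-0.59) was down. As shares these were 28.6 and 14.3%, beside 5.96 and 5.80% of all genes. ATF4 was within the limit there (0.40). As deposited, 5 of 7 were up with the combination (71.4%, beside 30.4% of all genes), ATF4 among them (1.05). Under 48-h paclitaxel, where DDIT4 was 1.84 above the control, DDIT3 (0.61) was the only one past the limit (14.3%, beside 3.28% of all genes up). ATF4 differed by -0.01. As deposited, DDIT3 differed by 0.19 there and ATF4 by -0.56, both within the limit, and HIF1A was down (-0.94).

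Target genes of these factors were counted in the same way. Of 6 measured ATF4 targets, ASNS, CHAC1, DDIT3, PSAT1 and TRIB3 were up under 2- and 16-h celecoxib and with the combination (83.3% each). The shares of all genes up were 3.31, 7.37 and 5.96% there. Under 48-h paclitaxel ASNS, CHAC1 and DDIT3 were up (50.0%, beside 3.28% of all genes). DDIT3 is also among the factors counted above, so the counts of factors and of targets are not separate. Among E-values as deposited, PSAT1 was within the limit under 16-h celecoxib (0.13), as was DDIT3 under 48-h paclitaxel (0.19), and the other calls held. CHAC1 and TRIB3 are named to complete these counts. ASNS, which makes asparagine, was 2.85, 2.21 and 2.40 above the control in the 3 groups with celecoxib. SESN2, the other measured target and also on the mTORC1 list, was 0.57, 0.46 and 0.14 above the control there, within the limit. The median of the list was 1.69, 2.10 and 1.27 in those groups. This list was chosen with earlier results of these data known.

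Of 15 measured HIF1 targets, none was up under 16-h celecoxib, where 7.37% of all genes were. The glycolytic genes LDHA (-1.21) and ENO1 (-0.79) were down (13.3%, beside 7.95% of all genes), with a list median of -0.09. VEGFA differed by 0.58, just within the limit, and by -0.02 on the deposited scale. Of 5 measured glucocorticoid receptor targets, TSC22D3 alone was up under 2- and 16-h celecoxib and with the combination. It is 20.0% of the list, beside 3.31, 7.37 and 5.96% of all genes up. FKBP5 (0.21) and DUSP1 (0.02) differed little at 16 h. Both were down on the deposited scale (-0.62 and -0.68), as 40.0% of the list beside 43.9% of all genes. Of 7 FOXO factors and targets, GADD45A was past the limit under 48-h paclitaxel (0.77) and under 16-h celecoxib (0.95), though within it on the deposited scale (0.48 and 0.21). GADD45A is 14.3% of the list, beside 3.28 and 7.37% of all genes up. CITED2 differed by 0.44 and 0.27 (0.29 and -0.17 on the deposited scale).

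**Figure D5:**
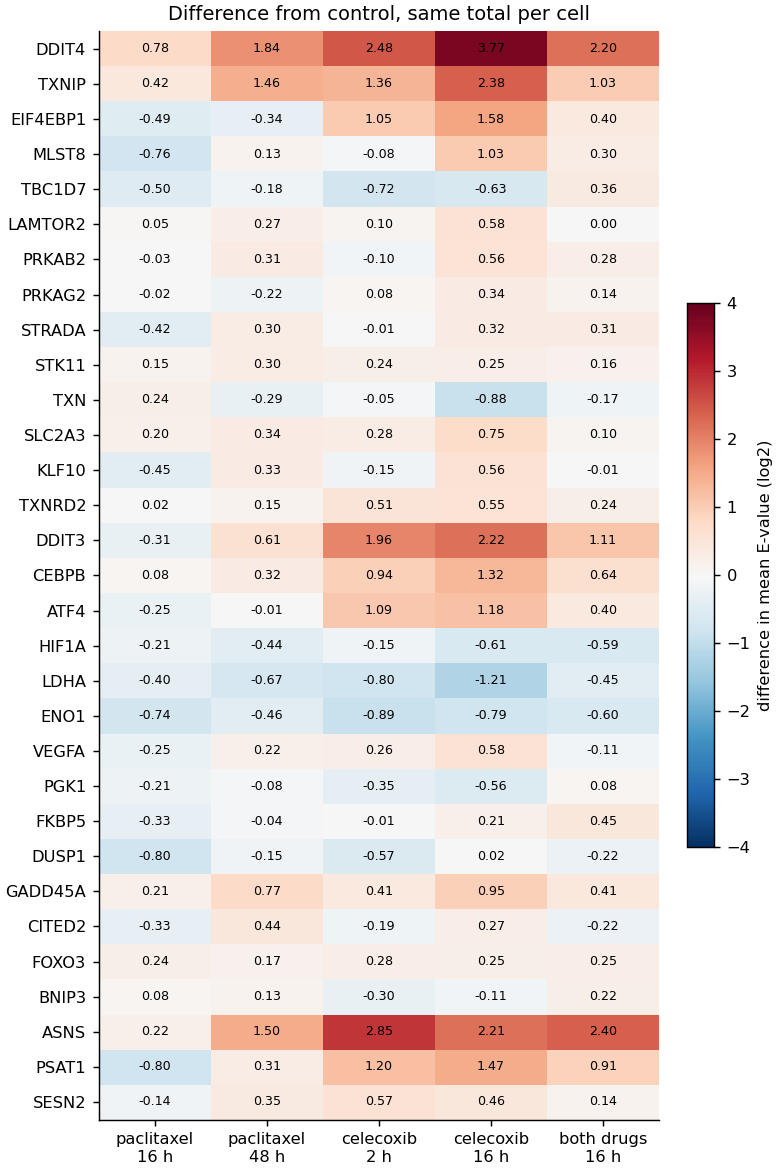
Difference in mean E-value from control at the same total per cell (log2 units, printed in each field) for DDIT4, TXNIP and 29 genes of the lists, in the 5 treatments. The highest fields are DDIT4 under 16-h celecoxib (3.77) and ASNS at 2 h (2.85), and LDHA under 16-h celecoxib is at -1.21.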

How the data were processed

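The members and all gene lists were chosen with earlier results of these data known. Adapters were trimmed by the authors (Trim Galore), TPM came from RSEM 1.3.0 with Bowtie2 against hg38 transcripts (GENCODE version 28) plus 3 spike-in RNAs, and the authors normalized to the highest spike-in RNA and removed cells with few housekeeping genes detected. The deposited unit is log2: E = log2(N/10 + 1), with 3 decimals. No column of cells was left out (0 unused). The depth in reads is unknown, so no interval that needs reads was computed, cells could not be thinned to 1 depth, and no doublet caller, which needs counts, was run.

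N was recovered from E, and the E-values were recomputed at 1 total per cell, the median total over the listed genes. Groups came from the sample labels. Each condition was 1 sample, so differences of mean E-values, ranks among 9655 genes and coefficients over cells have no test. Shares have exact Clopper-Pearson 95% intervals. Alternatives were the same total, linear means, a pseudocount of 1 normalized TPM, medians, wells noted as 1 cell, leaving out the 10% of cells with the fewest genes, single index blocks, an E-value above 1 as detection, other detection filters for the lists, and, after seeing the data, leaving out the highest DDIT4 control cell.

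Named besides the members were the genes ranked next under 16-h celecoxib, the 5 genes most like each member over cells and 3 over condition means, up to 4 genes per list with the largest difference under 16-h celecoxib at the same total and detected in 30% of the cells of both groups, and ATF4, HIF1A, ARRDC4, MLXIP, TXN, TSC1, TSC2 and PRKAA1. Other names complete a count of 5 or fewer. A gene this rule would name for DDIT4 over cells is not reported here. Positions are from GENCODE version 44 on hg38 and promoters from RefSeq on GRCh38.p14, where both members matched by symbol. The tools were pandas 2.3.3, scipy 1.17.1, numpy 2.4.6 and matplotlib 3.10.9 in Python 3.11.15.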

Additional observations from a re-analysis of the deposited data

How the results depend on the processing

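Of 138 differences under alternatives, 121 kept their side of the limit. Of 12 shares of cells 10 stayed within the 95% interval of the reported share, of 12 coefficients 9 moved by at most 0.1, and of 30 list counts 22 stayed within 1.5 times. The differences of both genes from control under 48-h paclitaxel, in both celecoxib groups and with the combination stayed past it in every alternative run (0.90 to 4.79 over both genes). DDIT4 under 16-h paclitaxel against control passed it at the same total (0.78), with a pseudocount of 1 (1.17), with medians (1.79), and without the highest control cell, on E-values and on linear means (0.59 each), but was -0.05 with linear means of all cells. TXNIP there passed it with a pseudocount of 1 (0.70). Combination minus celecoxib 16 h turned with the scale: DDIT4 was -1.56 at the same total and 0.78 with linear means, and TXNIP was -1.35 at the same total, -0.80 with a pseudocount of 1 and 0.69 with linear means. Celecoxib 16 h minus 2 h passed the limit at the same total (1.29 and 1.02), with a pseudocount of 1 (0.71 and 0.74) and with medians (0.63 and 0.64). Counting cells above an E-value of 1, DDIT4 was detected in 60.7% under 16-h paclitaxel and TXNIP in 75.4% under 16-h celecoxib. Pearson's r between the genes was 0.50 in the 9 control cells and -0.21 in the 23 cells under 16-h paclitaxel with both above 0, and -0.26 at 48 h at the same total. On the deposited scale 32 listed genes were down under 16-h paclitaxel (36.8%, beside 37.3% of all genes), 2 up and 14 down at 48 h (16.1% down, beside 26.6%), 16 down at 2 h (18.4%, beside 25.7%) and 6 up and 30 down under 16-h celecoxib, and 32 up and 0 down with the combination. With 1 run per condition no replicate could be left out. No paired analysis was possible because each condition is 1 sample. The causes were not tested.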

Other observations

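The spread of DDIT4 over cells lay above that of genes of a like level, by over 2 bin SDs in 1 of the 6 conditions. Among genes in the same of 100 bins of mean E-value, its coefficient of variation stood 1.78 bin SDs above the bin mean in the control, 2.14 under 48-h paclitaxel, 1.59 under 16-h celecoxib and 1.25 with the combination, and 0.84 and 0.60 under 16-h paclitaxel and 2-h celecoxib. Between 1.39 and 1.90% of genes stood over 2 bin SDs above. TXNIP stood between 0.19 and 1.08 bin SDs above in the 4 conditions where its mean E-value exceeded 1. These are descriptions of cells of 1 run each.

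The control cell with the highest DDIT4 level (E-value 6.56) had TXNIP at 0. It exceeded all cells treated with a single drug, and 6 of 59 combination cells exceeded it. At the same total its value was 6.01, which 15 of 61 cells under 16-h celecoxib exceeded, and 1 cell each under 48-h paclitaxel, under 2-h celecoxib and with the combination.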
